A study of Bos taurus with 47 samples.

Results

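The whey protein genes described here are the 3 abundant milk genes that do not encode caseins: LALBA (ENSBTAG00000005859, alpha-lactalbumin), PAEP (ENSBTAG00000014678, beta-lactoglobulin) and GLYCAM1 (ENSBTAG00000013417, glycosylation-dependent cell adhesion molecule). They were taken by identifier from the 24616 genes of a cattle expression table, and all 3 were found. Their names come with this selection, since the deposited table holds identifiers without gene names. Whey is the soluble part of milk, which remains when the caseins are curdled. Alpha-lactalbumin binds a galactosyltransferase in the Golgi of the mammary secretory cell, and the pair makes lactose, the sugar that draws water into milk. Beta-lactoglobulin is the main whey protein of ruminant milk and belongs to the lipocalins, which carry small fat-soluble molecules. The GLYCAM1 protein of cattle, also known as PP3 or lactophorin, is a phosphorylated glycoprotein of whey, and its mouse counterpart carries a ligand for L-selectin on lymph node vessels. In mammary tissue the milk protein genes are known to be switched on by prolactin through STAT5 together with glucocorticoid, and they fall when milking stops.

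RNA sequencing libraries of Holstein cattle, 47 in all with 15 tissue labels, were compared. The lactating mammary gland (1 library, from the female called the lactating cow) and the dry mammary gland (1 library, from the female called the dry cow) are set against each other. Each of 10 tissues (rumen, ileum, liver, kidney, spleen, lung, heart, muscle, adipose tissue and frontal cortex) has 4 libraries, from both females and from 2 males, called male A and male B. Ovary and uterus have 2 each, from the 2 females, and lymphocytes have 1, from a further male. Ages, treatments and the days since calving or since milking stopped are not given in the sources used here. Levels are FPKM, which scale the fragments of a gene to its transcript length in kilobases and to 1000000 fragments of the library, so levels of different genes can be set side by side. Summed over all genes, the 47 libraries held 576130.0 to 964931 FPKM each, and the number of fragments behind them is unknown. Each library is bulk tissue, in which fewer cells of a type and less RNA per cell cannot be told apart. The markers of the tissues could not be looked up without gene names, so the labels were not checked against them.

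All 3 genes were far higher in the lactating gland than in the dry gland. LALBA had 62183 FPKM in the lactating gland and 420 FPKM in the dry gland, a 148-fold difference and a log2 ratio of 7.21. PAEP had 132809.5 FPKM in the lactating gland and 2074 FPKM in the dry gland, a 64.0-fold difference and a log2 ratio of 6.00. GLYCAM1 had 28404 FPKM in the lactating gland and 354 FPKM in the dry gland, an 80.3-fold difference and a log2 ratio of 6.33. The lactose synthase subunit thus had the largest ratio of the 3, and the most abundant whey gene, PAEP, the smallest.

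By level, PAEP ranked 3rd, LALBA 5th and GLYCAM1 7th of all genes in the lactating gland. Below GLYCAM1 the next gene stood at 3324 FPKM. In the dry gland the same genes ranked 52nd, 195th and 239th. PAEP took 14.1% of the summed FPKM of the lactating gland and 0.303% of that of the dry gland. LALBA took 6.62% of the lactating and 0.0613% of the dry library, and GLYCAM1 took 3.02% of the lactating and 0.0516% of the dry library. Together the whey genes held 23.8% of the lactating FPKM and 0.416% of the dry FPKM. The other 4 genes of at least 10000 FPKM in the lactating gland, whose identifiers the sources used here do not name, held 51.0% of the lactating and 1.07% of the dry FPKM. Their lactating to dry folds ran from 31.5 to 103, so LALBA lay above this range while PAEP and GLYCAM1 lay within it.

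The glands were also compared over all 13002 genes that reached 1 FPKM in one or both of them. In the lactating gland 1.29% of these were higher by 4-fold or more, and all 3 whey genes were among them. LALBA ranked 9th by the ratio. Of the 8 genes above it, 7 were listed at 0 in the dry gland. With 1 FPKM added to each value LALBA ranked 1st, GLYCAM1 7th and PAEP 9th. FPKM is relative to a library's total. The median log2 ratio of genes above 0 in both glands was -1.92, and relative to that median the log2 ratios of LALBA, PAEP and GLYCAM1 were 9.13, 7.92 and 8.25. There is no replicate of either gland, so no test was made, and stage and cow cannot be told apart.

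**Figure D1:**
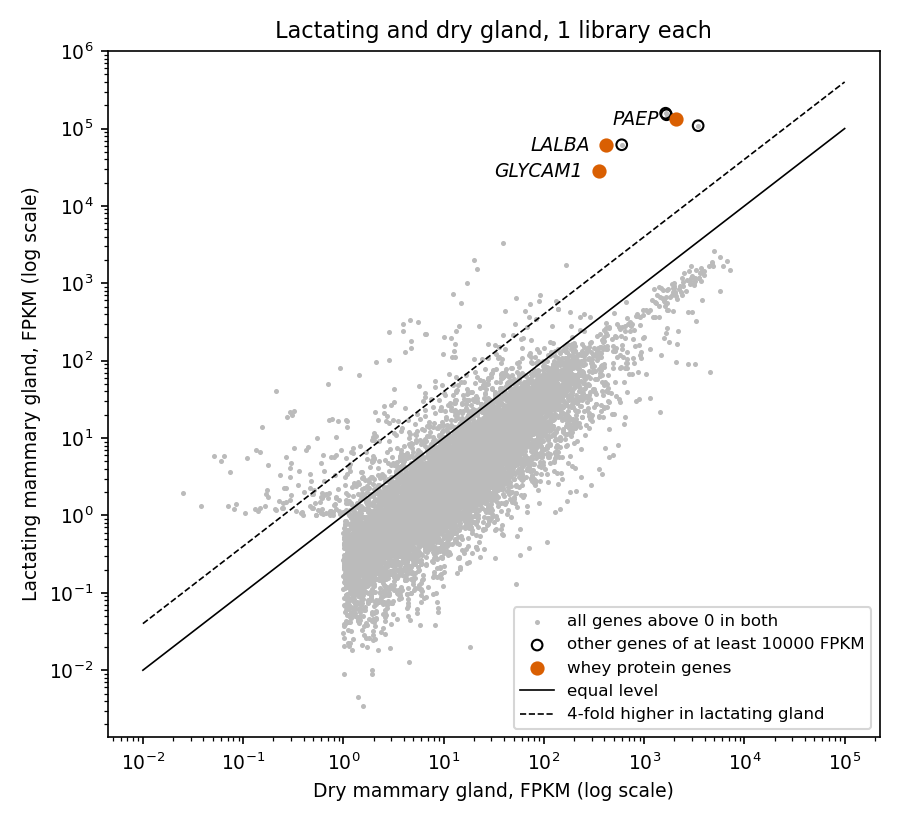
Level of each gene in the lactating gland (vertical axis) and the dry gland (horizontal axis), in FPKM on log scales, 1 point per gene and 1 library per gland. The 3 whey genes lie with 4 other genes above 10000 FPKM in the lactating gland, while the next gene stands at 3324 FPKM.

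The mixture of whey transcripts differed between the glands. PAEP stood at 2.14 times LALBA in the lactating gland and at 4.94 times LALBA in the dry gland. LALBA stood at 2.19 times GLYCAM1 in the lactating gland and at 1.19 times GLYCAM1 in the dry gland. The ratio of PAEP to GLYCAM1 was 4.68 in the lactating gland and 5.87 in the dry gland. Of the 3 genes' summed level, LALBA made up 27.8% during lactation and 14.7% in the dry gland, PAEP 59.5% during lactation and 72.8% in the dry gland, and GLYCAM1 12.7% during lactation and 12.4% in the dry gland. These ratios compare genes within a library and do not depend on a factor applied to a whole library, but each rests on 1 library. Quantile normalization can change them. After it the log2 ratios of lactating to dry gland were 4.24 for LALBA and 4.21 for GLYCAM1, against 7.21 and 6.33 as deposited.

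Outside the mammary gland the 3 genes were either listed at or near 0 or clearly present, and they were present together. Of the 45 other libraries, 16 had at least 1 FPKM of LALBA, 16 of PAEP and 16 of GLYCAM1, and these were the same 16 libraries. Within them LALBA ran from 5.83 to 87.4 FPKM, PAEP from 14.3 to 186 FPKM and GLYCAM1 from 2.20 to 35.7 FPKM. In the remaining 29 libraries the highest LALBA value was 0.236 FPKM, in the kidney of the lactating cow. The highest PAEP value there was 0.144 FPKM, in the adipose tissue of the lactating cow, and the highest GLYCAM1 value was 0.132 FPKM, in the ileum of male A. PAEP was also above 0, at 0.102 FPKM, in the adipose tissue of male A, and 25 libraries listed all 3 genes at 0. No library fell between these ranges for any of the 3 genes. Whether these transcripts come from the tissue itself or from the lactating gland's library was not tested, and the levels below are those of the libraries.

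**Figure D2:**
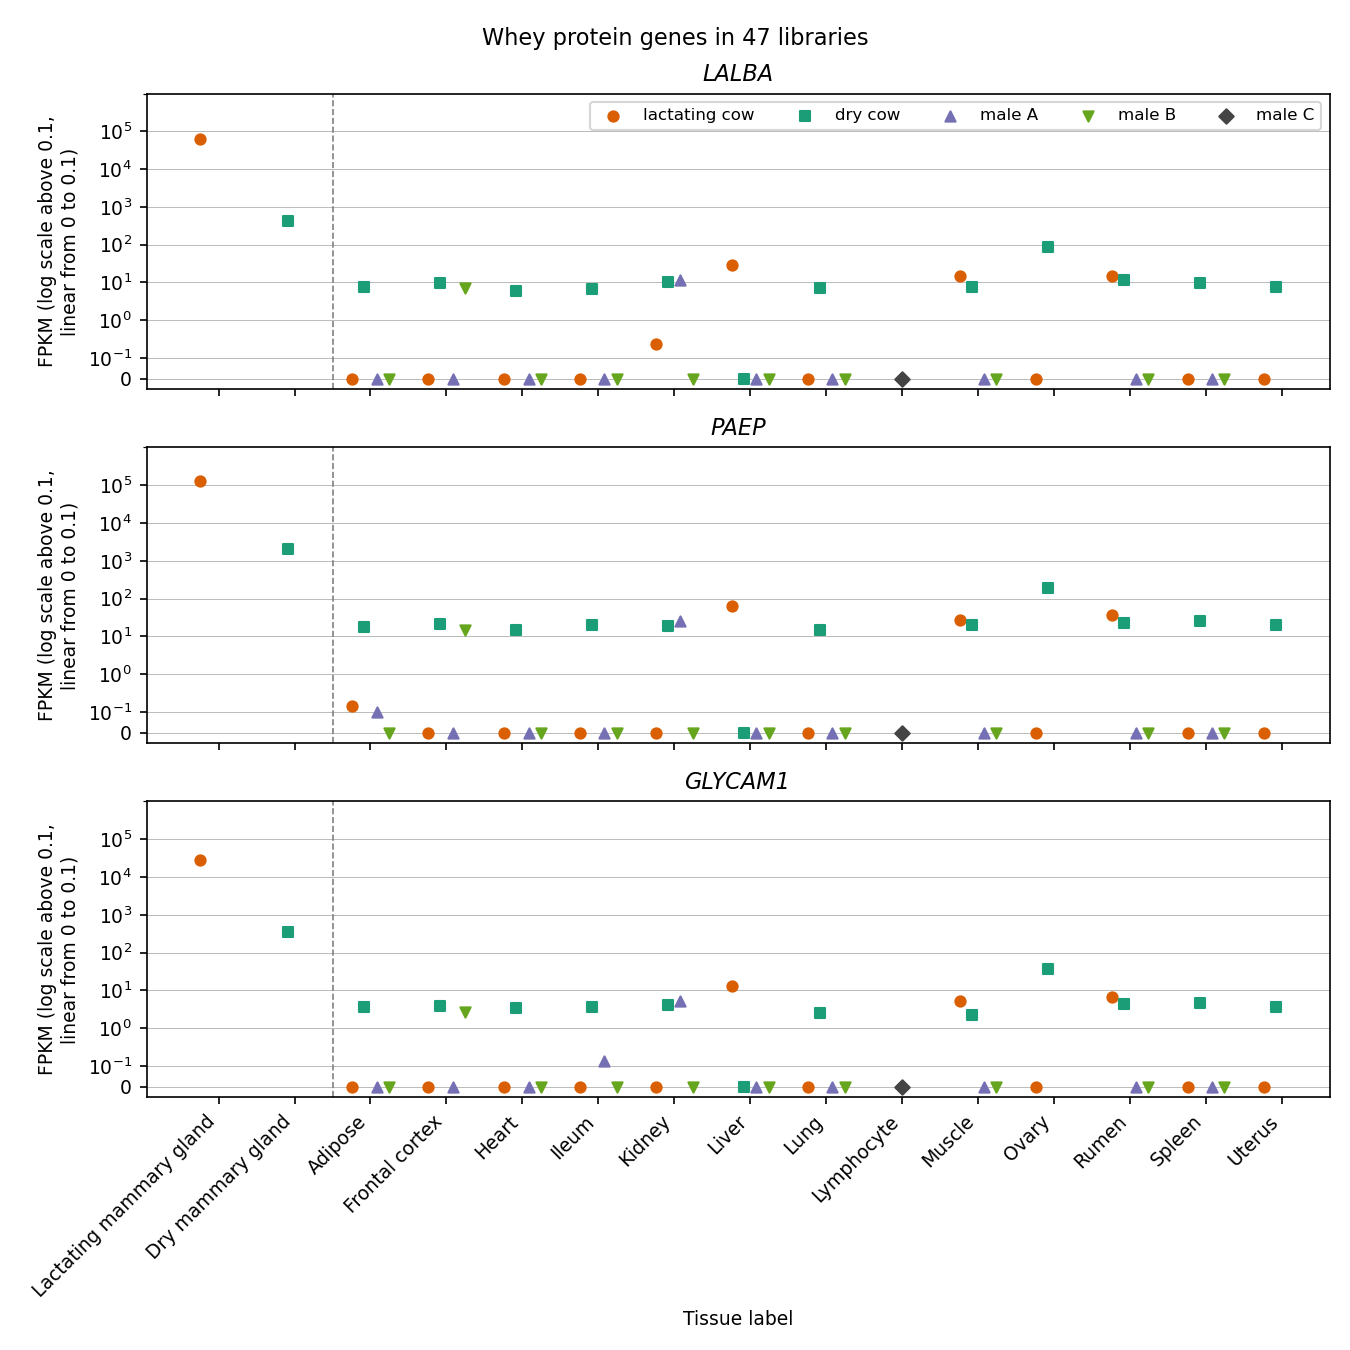
FPKM of LALBA, PAEP and GLYCAM1 (vertical axes, logarithmic above 0.1 and linear below) in each of 47 libraries by tissue label, with a symbol per animal and male C as the lymphocyte donor. Mammary libraries stand left of the dashed line, and among the other 45 libraries 16 hold all 3 genes at 2.20 FPKM or more while 29 stay at or under 0.236 FPKM.

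The libraries with whey transcripts were spread unevenly over the animals. The dry cow had them in 11 of 12 other tissues, the lactating cow in 3 of 12, and male A and male B in 1 of 10 each. The lymphocyte library listed all 3 genes at 0. With 1 lactating and 1 dry cow, and with libraries of an animal not being replicates of its state, this was not tested.

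In the dry cow, LALBA, the lactose synthase subunit, had 7.53 FPKM in adipose tissue, 9.79 in frontal cortex, 5.83 in heart, 6.65 in ileum, 10.3 in kidney, 6.97 in lung, 7.33 in muscle, 11.7 in rumen, 9.78 in spleen and 7.69 in uterus. PAEP, the lipocalin, had 18.2 FPKM in adipose tissue of the dry cow, 20.7 in frontal cortex, 14.5 in heart, 19.9 in ileum, 18.9 in kidney, 15.0 in lung, 19.7 in muscle, 22.1 in rumen, 26.3 in spleen and 20.1 in uterus. GLYCAM1 had 3.68 FPKM in adipose tissue of the dry cow, 3.92 in frontal cortex, 3.41 in heart, 3.53 in ileum, 4.03 in kidney, 2.51 in lung, 2.20 in muscle, 4.40 in rumen, 4.60 in spleen and 3.71 in uterus. In this cow tissues as unlike as brain, heart and rumen lay between 14.5 and 26.3 FPKM of PAEP, while her liver listed all 3 genes at 0.

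Ovary of the dry cow was the highest of the 45 libraries for all 3 genes. It had 87.4 FPKM of LALBA, 186 FPKM of PAEP and 35.7 FPKM of GLYCAM1, while the ovary of the lactating cow listed all 3 at 0. In human tissue the PAEP protein is known as glycodelin and is made in the endometrium, the lining of the uterus. Here the uterus of the dry cow did not stand above her other tissues for PAEP, and the uterus of the lactating cow listed it at 0. Each value rests on 1 library labelled uterus, in which the endometrium cannot be seen apart, so expression there was not tested.

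The lactating cow had whey transcripts in liver, muscle and rumen. Her liver had 29.1 FPKM of LALBA, 63.0 of PAEP and 13.2 of GLYCAM1, and the livers of the other 3 animals listed all 3 genes at 0. Her rumen had 15.0 FPKM of LALBA, 36.4 of PAEP and 6.72 of GLYCAM1. Her muscle had 14.5 FPKM of LALBA, 26.7 of PAEP and 5.15 of GLYCAM1. In each of these tissues she was the highest of the 4 animals for each gene.

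Both males had a library with whey transcripts too, although neither has a lactating gland. The kidney of male A had 11.7 FPKM of LALBA, 25.2 of PAEP and 5.26 of GLYCAM1, above the kidney of the dry cow for all 3 genes. The frontal cortex of male B had 7.22 FPKM of LALBA, 14.3 of PAEP and 2.71 of GLYCAM1, under the frontal cortex of the dry cow for all 3 genes. In the other 18 male libraries of these tissues no whey gene exceeded 0.132 FPKM.

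**Figure D3:**
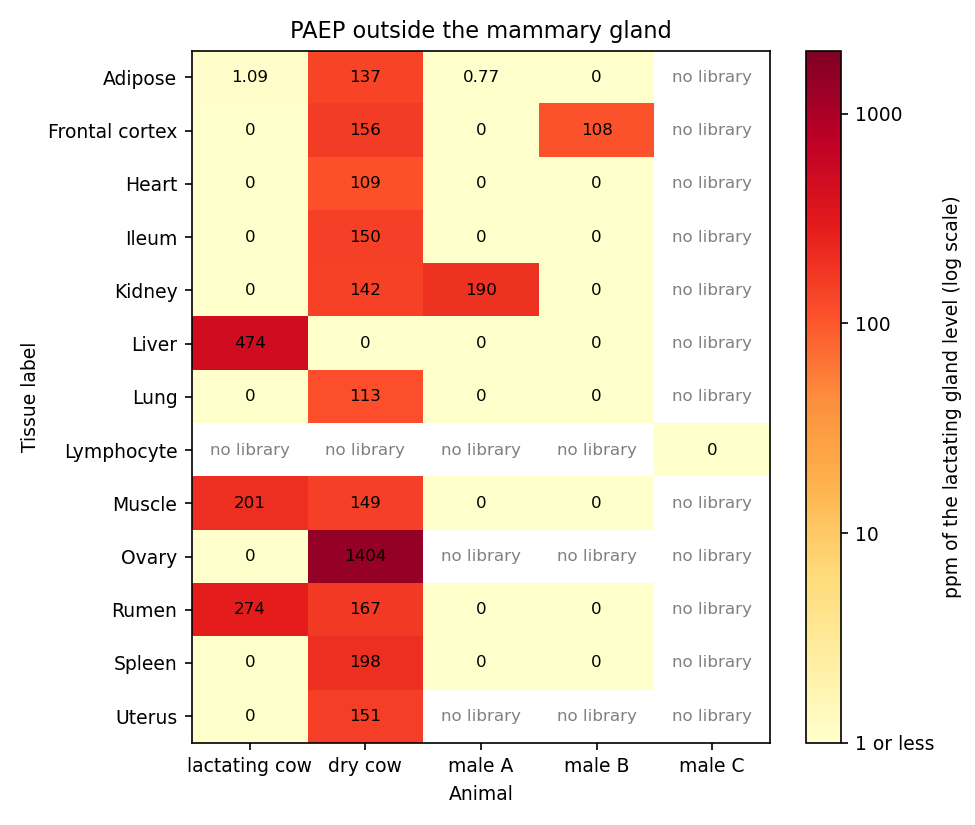
PAEP in the 45 libraries other than mammary gland, by tissue label (rows) and animal (columns), in ppm (parts in 1000000) of its level in the lactating gland, with colour on a log scale. Of the 12 tissues sampled in the dry cow 11 hold at least 109 ppm, and the highest value is 1404 ppm in her ovary.

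Measured against the mammary libraries, these levels were small for the lactating and larger for the dry gland. In the 16 libraries LALBA stood at 93.8 to 1405 ppm of its lactating level, PAEP at 108 to 1404 ppm and GLYCAM1 at 77.5 to 1258 ppm. The ovary value was 20.8% of the dry gland's LALBA, 8.99% of its PAEP and 10.1% of its GLYCAM1. The dry gland exceeded every non-mammary library, by 4.80 times for LALBA, 11.1 times for PAEP and 9.90 times for GLYCAM1 over the ovary of the dry cow.

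In these 16 libraries 2 of the 3 ratios between whey genes lay nearer to the lactating gland than to the dry gland in every library. PAEP over LALBA ran from 1.83 to 2.99, against 2.14 in the lactating gland and 4.94 in the dry one, and was nearer on the log scale to the lactating gland in 16 of 16 libraries. LALBA over GLYCAM1 ran from 1.71 to 3.33, against 2.19 in the lactating gland and 1.19 in the dry one, and was also nearer to the lactating gland in 16 of 16. The mammary glands differ less in PAEP over GLYCAM1, which ran from 4.25 to 8.97 in these libraries and was nearer to the lactating gland in 8 of 16. It lay above the lactating gland in 15 of 16. In 11 other tissues of the dry cow PAEP over LALBA ran from 1.83 in kidney to 2.99 in ileum, with 2.13 in ovary, while her mammary gland had 4.94. In the kidney of male A it was 2.15 and in the liver of the lactating cow 2.17.

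**Figure D4:**
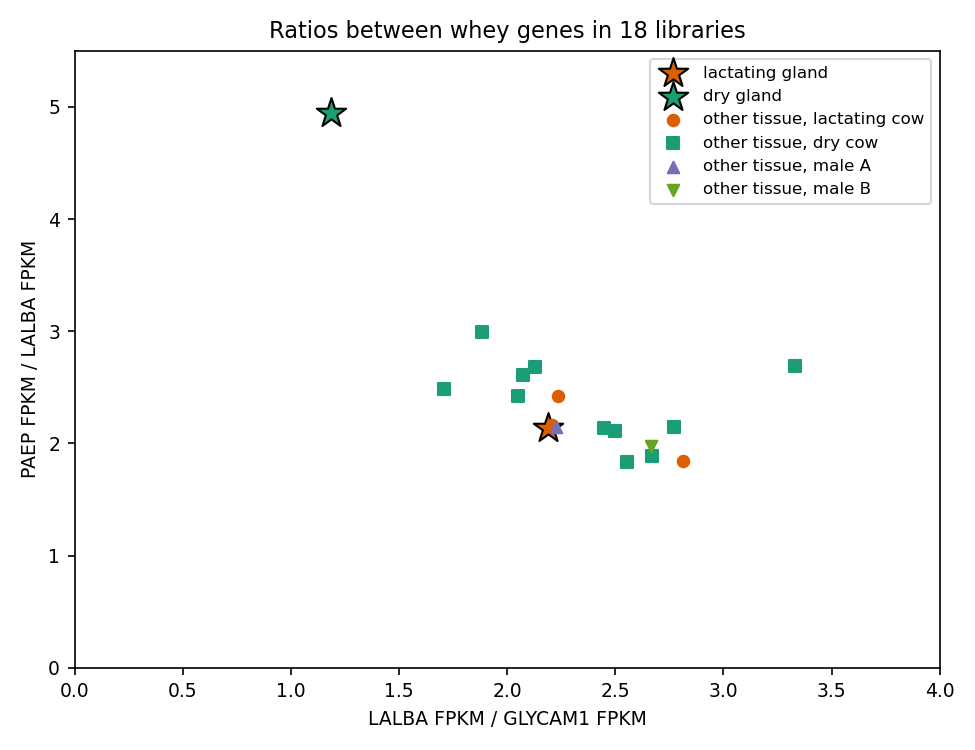
PAEP over LALBA (vertical axis) and LALBA over GLYCAM1 (horizontal axis), as ratios of FPKM within a library, in the 2 mammary glands (stars) and the 16 other libraries with at least 1 FPKM of all 3 genes. The 16 libraries surround the lactating gland at 2.14 and 2.19, and the dry gland stands apart at 4.94 and 1.19.

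As a restatement of the ratios above, the whey genes stood at similar fractions of their lactating level within a library. In the kidney of male A they were at 188 (LALBA), 190 (PAEP) and 185 ppm (GLYCAM1). In the liver of the lactating cow they were at 467, 474 and 463 ppm in the same order. Over the 16 libraries the highest of the 3 fractions was 1.02 to 1.92 times the lowest. The gap was narrowest in these kidney and liver libraries and widest in muscle of the dry cow. Taken as fractions of the dry gland level instead, the highest was 1.65 to 2.81 times the lowest, and in 16 of 16 libraries this gap was larger than that against the lactating gland.

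The genes most like the whey genes over the 45 libraries were the other 4 leading genes of the lactating gland. The closest was ENSBTAG00000005005, with a mean Pearson correlation of 0.996 with the 3 whey genes on the log2(FPKM + 1) scale, followed by ENSBTAG00000039787 with 0.995. The third and the fourth had 0.994 each, and the fifth of the 16617 genes compared had 0.594. These 4 genes also stood at similar fractions of their lactating level, and over all 7 genes the highest fraction was 1.16 to 1.92 times the lowest within a library. The correlations describe libraries that share a table, animals and sequencing, and they carry no test.

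Transcripts of other organs were present in libraries both with and without whey transcripts. Genes restricted to liver (18 genes), rumen (10) and muscle (9), each with a mean of at least 2000 FPKM in its tissue and at least 100 times that of any other label, were followed in libraries of other tissues as a median fraction of their level at home. The liver genes ran from 74.1 to 517 ppm in libraries with whey transcripts and from 0 to 1340 ppm in those without. For the rumen genes the ranges were 170 to 389 ppm with and 0 to 571 ppm without whey transcripts, and for the muscle genes 155 to 522 ppm with and 3.26 to 869 ppm without. Of the 10 libraries in which liver and rumen genes were both under 50 ppm, 0 had whey transcripts, and of the 35 other non-mammary libraries 16 had them and 19 did not. Of these 10 libraries, 9 came from the lactating cow and 1 is the lymphocyte library. The 50 ppm cut was not planned in advance, and this split leaves out the muscle genes. Those stood at 76.3 ppm in the lymphocyte library and at 67.2 ppm in the lung of the lactating cow. In the libraries of male A and male B without whey transcripts, leaving out their livers, the liver genes ran from 60.98 to 1340 ppm. The labels give no sequencing lane or date, and the part of these transcripts in the whey levels was not tested.

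Averaged by tissue, no label stood out beyond its spread. PAEP averaged 93.2 ± 132 FPKM in ovary and 10.04 ± 14.2 in uterus (SD, n = 2 each). It averaged 15.7 ± 31.5 in liver, 14.6 ± 17.9 in rumen, 11.6 ± 13.7 in muscle, 11.0 ± 13.0 in kidney, 8.74 ± 10.4 in frontal cortex, 6.56 ± 13.1 in spleen, 4.97 ± 9.94 in ileum, 4.62 ± 9.07 in adipose tissue, 3.74 ± 7.48 in lung and 3.62 ± 7.25 FPKM in heart (SD, n = 4 each). The SD exceeded the mean in all 12 labels for each of the 3 genes. Ovary, liver and rumen came first in this order for LALBA, with means of 43.7 ± 61.8, 7.26 ± 14.5 and 6.69 ± 7.84 FPKM, and for GLYCAM1, with 17.9 ± 25.3, 3.29 ± 6.58 and 2.78 ± 3.35 FPKM (SD, n = 2, 4 and 4). No neighbours in the order differ beyond their spread.

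Each label was also set against the mean of the other non-mammary labels with limma on log2(FPKM + 1). Of 36 tests, 12 labels for each of 3 genes, 0 passed an adjusted p of 0.05 and 0 had an unadjusted p under 0.05. Among all 16617 genes tested, the share called ran from 46.4% in ovary to 86.8% in muscle, with 56.0% in adipose tissue, 75.0% in frontal cortex, 80.3% in heart, 65.0% in ileum, 66.2% in kidney, 84.7% in liver, 65.2% in lung, 70.6% in rumen, 71.6% in spleen and 48.3% in uterus. The largest differences of the whey genes were those of ovary, 2.09 ± 1.38 for LALBA, 2.26 ± 1.78 for PAEP and 1.80 ± 0.999 for GLYCAM1 on the log2 scale (SE), with limma adjusted p of 0.216, 0.307 and 0.138. Without the ovary library of the dry cow these differences turned to -1.15, -1.52 and -0.80. Without the lactating cow, which leaves 1 ovary library, they were 5.22, 5.86 and 4.34. With 1 library there is no spread within ovary, so no test is given for that fit. Values that are 0 in most libraries and well above 0 in a few are far from the normal spread this model assumes. Ovary and uterus came from the 2 cows only, and the tissue fit above has no animal term. Animal and sex are thus mixed into their differences. A fit with a replicate block per animal, lymphocytes left out, gave 1.18 (LALBA), 1.06 (PAEP) and 1.18 (GLYCAM1) for ovary. Leaving out lymphocytes alone gave 1.98, 2.12 and 1.73. For uterus the block fit gave -0.65, -0.66 and -0.44, and leaving out lymphocytes alone gave 0.16, 0.40 and 0.12.

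Between the sexes, each animal's mean of log2(FPKM + 1) over the 10 shared tissues was compared. LALBA averaged 0.37 in male A and 0.30 in male B, against 1.32 in the lactating cow and 2.89 in the dry cow. PAEP averaged 0.49 in male A and 0.39 in male B, against 1.62 in the lactating cow and 3.90 in the dry cow. GLYCAM1 averaged 0.28 in male A and 0.19 in male B, against 0.94 in the lactating cow and 1.96 in the dry cow. Both males were lower than both females for each gene. The male minus female differences were -1.77 ± 0.48, -2.32 ± 0.69 and -1.21 ± 0.31 (SE) in the order of LALBA, PAEP and GLYCAM1. They did not pass the test, with limma adjusted p of 0.127, 0.146 and 0.118, while 0.860% of 16503 genes were called. The unadjusted limma p were 0.0113, 0.0167 and 0.00935 in the same order. Of the 16503 genes, 3655 had an unadjusted p under 0.05. Without the lactating cow the differences were -2.55, -3.46 and -1.72, and they then set the males against the dry cow alone. The males alone supply the spread in that fit, so no test is given for it. The mammary libraries do not enter this comparison, and it rests on 1 library in each male with whey transcripts, against 3 in the lactating and 9 in the dry cow.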

How the data were processed

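The authors deposited 1 table of FPKM for all libraries. Per the submitters' processing notes Trimmomatic 0.39, STAR, Cufflinks and the assembly UMD3.1 were used. Settings and annotation are not given in the sources used here. Paired reads of 150 bases came from TruSeq libraries of column-purified total RNA, per the labels' protocols. Of 51 columns, 47 matched a sample and 4 were not used. The title of 1 muscle sample (male A) lacks a letter of the tissue code in its column. The design text names 4 individuals, the sample titles 5 animal numbers, which were used. The RefSeq table supplied (ARS-UCD2.0) holds no Ensembl identifiers, so the lists of other milk genes and of tissue markers could not be applied. No cattle promoter or genome sequence was supplied, so promoter motifs were not counted, and no coordinates or sequences are given. The members and lists were chosen with earlier results of these data known. Beside the members, the 2 identifiers most like them were to be named.

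The models used R 4.3.3 and its package limma 3.58.1, on log2(FPKM + 1), with an intensity trend and Benjamini-Hochberg adjustment over genes with at least 1 FPKM in 2 libraries. Differences on this scale understate changes of low genes. The tissue fit used 45 libraries and the sex fit 4 animal means. Scripts were tested on simulated data. Same-numbered libraries come from the same animal by their titles, and over 180 pairs their deviations from the tissue means correlated at a median of 0.182. Tables were made with pandas 2.3.3 and numpy 2.4.6 in Python 3.11.15, plots with matplotlib 3.10.9. Replicates are animals, and depth is unknown, so no counting interval is given. Alternatives were other pseudocounts, filters and scalings, an animal block and leaving out each animal.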

Additional observations from a re-analysis of the deposited data

Results flagged for a closer look

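In tissues with 4 libraries, 1 library stood far from the other 3 by Dixon's criterion in 18 of 30 combinations of gene and tissue. Chance gives about 5% for independent, normally distributed values, which these are not. With 3 libraries at or near 0, a single library with whey transcripts meets the criterion, and the 3 genes were present together, so the 18 cases restate 6 libraries. In every case the high library was the dry cow's, apart from liver, where it was the lactating cow's, and the 3 genes were far out in the same 6 tissues. In liver of the lactating cow LALBA had 29.1 FPKM, PAEP 63.0 and GLYCAM1 13.2. In the dry cow LALBA had 7.53 FPKM in adipose tissue, 5.83 in heart, 6.65 in ileum, 6.97 in lung and 9.78 in spleen. In the same order PAEP had 18.2, 14.5, 19.9, 15.0 and 26.3 FPKM, and GLYCAM1 had 3.68, 3.41, 3.53, 2.51 and 4.60 FPKM.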

How the results depend on the processing

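The number of tissue labels called stayed at 0 for each whey gene under another pseudocount, without a filter, after rescaling or quantile normalization, in the 10 shared tissues, and with the animal as a replicate block (0 called). It also stayed at 0 when male A or male B was left out. Leaving out either cow leaves 1 ovary and 1 uterus library, so only differences are given for those fits. Without the lactating cow the ovary differences were 5.22 for LALBA, 5.86 for PAEP and 4.34 for GLYCAM1. The ovary differences turned without the ovary library of the dry cow, an alternative chosen after seeing the data, to -1.15 (LALBA), -1.52 (PAEP) and -0.80 (GLYCAM1), and without the dry cow to -0.55, -0.69 and -0.39. With 1 animal left out, the male minus female difference ran from -2.55 to -0.98 for LALBA. It ran from -3.46 to -1.18 for PAEP and from -1.72 to -0.70 for GLYCAM1. Each of these fits leaves 1 animal in a sex, so only differences are given. The log2 ratios of lactating to dry gland for LALBA, PAEP and GLYCAM1 were 6.76, 5.55 and 5.87 after rescaling to the same sum, 4.24, 2.87 and 4.21 after quantile normalization, and 9.13, 7.92 and 8.25 after scaling by the median ratio. At a threshold of 10 FPKM, chosen after seeing the data, 7 libraries held LALBA and 2 held GLYCAM1. By tissue means, 12 labels reached 1 FPKM of LALBA and 12 of PAEP, against 6 each by medians. The mean and the median differ where 1 library of 4 is high, as for LALBA in heart, with a mean of 1.46 and a median of 0 FPKM. The cause of the shifts of the log2 ratios with scaling was not tested. As fractions of the dry gland, the highest levels elsewhere were 208300.0 (LALBA), 89890.0 (PAEP) and 101100.0 ppm (GLYCAM1). Depth is unknown, so a gene listed at 0 may still be present at a low level.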
